A study of Mus musculus with 8 samples.

Results

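The genes described here are 10 genes of the NRF2 antioxidant response, *Nfe2l2*, *Keap1*, *Nqo1*, *Hmox1*, *Gclc*, *Gclm*, *Txnrd1*, *Srxn1*, *Slc7a11* and *Sod1*, of the 55414 Ensembl gene identifiers counted. They were taken by symbol, all 10 were found in the table, and the rule uses no measured value. RNA-seq was performed on Paneth cells sorted by FACS from small intestines of mice of the C57BL/6J strain, with 1 library per mouse. The control group (4 mice) received standard chow and the zinc depleted group (4 mice) received chow depleted of zinc, in both cases for 7 weeks, and all mice were otherwise of the same genotype. The sources used here give neither the age of these mice nor the zinc content of the tissue. The comparison asked whether the zinc depleted diet changed the mRNA level of these genes in Paneth cells.

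NRF2, the product of *Nfe2l2*, is a transcription factor that is held in the cytoplasm and handed to degradation by KEAP1, a cysteine-rich adaptor of a CUL3 ubiquitin ligase. Oxidants and electrophiles, and also zinc ions, modify or bind cysteines of KEAP1, after which NRF2 accumulates, pairs with small MAF proteins and binds antioxidant response elements near its target genes. Those targets make glutathione, run the thioredoxin cycle and detoxify heme and quinones. Paneth cells fill their granules with zinc and with disulfide-rich peptides, so they combine a zinc store with heavy oxidative folding.

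Libraries held 8557690 to 12648005 counts, and 3 counts, the most that an observed 0 leaves possible, corresponded to 0.237 to 0.351 CPM (counts scaled to a library of 1000000). TMM scaling, which sets the bulk of genes to the same level in each library, was used for values between mice unless stated otherwise (normalised CPM). The Paneth cell products on a fixed list of 7 (*Lyz1*, *Defa24*, *Defa30*, *Itln1*, *Mmp7*, *Ang4* and *Mptx2*) made up 46.2% to 57.0% of the libraries of the control mice and 52.2% to 60.8% of those of the zinc depleted mice. All 7 had a positive log2 difference (median 0.46) and 0 were called, with *Mptx2* at 1.45 (edgeR adjusted p = 0.0712) and *Ang4* at 0.99 (adjusted p = 0.276) not overlapping between diets. Goblet cell markers summed to 1003 to 2264 normalised CPM in the control and 1477 to 3410 in the zinc depleted mice, enterocyte markers to 93.4 to 253 and 86.3 to 203, and enteroendocrine markers to 21.2 to 41.2 and 15.7 to 41.3, with 0 genes called in each list. Stromal and erythroid markers were at or below 0.656 CPM in sum in every mouse, and 3 of 8 immune markers (*Csf1r*, *Adgre1* and *Cd3e*, of macrophages and T cells) had 0 counts in all 8 mice. *Ptprc* had 44 counts in sum over 7 mice, with up to 32 in 1 mouse, *C1qa* had 18 over 3 mice, *C1qb* had 2 and *Cd79a* had 1. The summed immune level of 15.5 to 40.2 normalised CPM in the control and 36.6 to 51.8 in the zinc depleted mice came mostly from *Lyz2*, a close copy of the Paneth cell gene *Lyz1*. Control replicate 1 stood apart, with the lowest Paneth share (46.2%) and a TMM scaling factor of 1.57 against 0.719 to 1.16 in the other mice. Without it, 33 genes were called between diets in place of 44, and 0 of the 10 genes in both cases. Stem and cycling cell markers were lower in the zinc depleted mice, with a summed level of 578 to 1136 normalised CPM against 1357 to 1940 in the control mice. Most of this sum was *Olfm4*, with means of 1345 normalised CPM in the control and 693 in the zinc depleted mice. All 6 had a negative log2 difference, from -1.18 to -0.10 (*Smoc2*). In edgeR's test 5 of them had an unadjusted p under 0.05, as did 10.5% of all genes tested. Of the 6, 1 (*Top2a*) passed the adjusted threshold, as did 0.403% of all genes tested. Tuft cell markers summed to 284 normalised CPM in zinc depleted replicate 3 and to at most 77.2 in any other mouse. The part of these cells in the results below was not tested. In sorted bulk samples, fewer cells of a type and less RNA per cell cannot be told apart.

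The core of the antioxidant response element, spelled TGACNNNGC, was searched on both strands of the 500 bases before the canonical start site of each gene (GRCm39, GENCODE M39). It was present for *Nfe2l2*, *Gclm*, *Txnrd1* and *Sod1* (4 of 10 genes), against 16.7% of 21609 protein-coding genes and 18.5% of the 10547 protein-coding genes that were also tested between diets. The 5 matches to these letters are shown, each with 10 bases on either side, 5′ to 3′ on the strand of the motif and with the core in capitals. The bases beside the core were not part of the search, so a match need not be a full element. In GENCODE M39 the *Nfe2l2* window lies in exons of the long noncoding RNAs *E030042O20Rik* and *Gm75256*, both *Txnrd1* windows lie in an intron of longer *Txnrd1* transcripts and in an exon of the antisense RNA *Gm38560*, the *Gclm* window lies in an intron of an antisense long noncoding RNA, and the *Sod1* window is intergenic. None of the 5 windows holds the related AP-1 site TGACTCA or TGAGTCA.
Nfe2l2, minus strand, chr2:75535229-75535257: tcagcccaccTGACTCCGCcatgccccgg
Gclm, minus strand, chr3:122039062-122039090: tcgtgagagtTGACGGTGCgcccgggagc
Txnrd1, minus strand, chr10:82694632-82694660: gcactggctgTGACCCTGCcaaatagttg
Txnrd1, minus strand, chr10:82694938-82694966: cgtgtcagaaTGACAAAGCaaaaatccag
Sod1, minus strand, chr16:90017303-90017331: ggattgtcacTGACTTTGCacagcgcgcc
The motifs begin 262 bases before the start site of *Nfe2l2*, 54 before that of *Gclm*, 371 and 65 before that of *Txnrd1* and 95 before that of *Sod1*. In the other 6 genes these letters do not occur in the window. A match is a description of the sequence, and NRF2 binding was not measured in these cells.

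Levels were compared between genes per length, as TPM (counts per exon base, scaled to 1000000 per mouse), over all 8 mice, where the length is the sum of a gene's exons. TPM are not TMM-scaled, so their SD over mice also holds differences between libraries that TMM scaling takes out. *Txnrd1*, the cytosolic thioredoxin reductase, was the highest of the 10 at 10 ± 3.92 TPM (SD, n = 8), above 91.7% of the genes tested. *Sod1*, the copper and zinc superoxide dismutase, followed at 5.21 ± 1.20 TPM. The pair that sets the response came next, with *Nfe2l2* at 4.12 ± 2.19 TPM and *Keap1* at 3.80 ± 1.46 TPM. *Gclc* had 3.29 ± 1.41 TPM and *Gclm* 2.10 ± 0.735 TPM, the catalytic and modifier subunits of glutamate-cysteine ligase, which makes the first step of glutathione synthesis. *Srxn1*, the sulfiredoxin that restores overoxidised peroxiredoxins, had 1.35 ± 0.383 TPM. *Hmox1*, the inducible heme oxygenase, had 1.01 ± 0.618 TPM. *Slc7a11*, the cystine importer, had 0.276 ± 0.173 TPM and *Nqo1*, the quinone reductase often used as a marker of NRF2 activity, had 0.152 ± 0.121 TPM, above only 3.37% of the genes tested.

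Neighbours in this order were compared within each mouse, as differences of log2(TPM + 0.1) with an exact two-sided sign-flip permutation test and Benjamini-Hochberg adjustment over the 9 pairs. *Txnrd1* exceeded *Sod1* in 8 of 8 mice by 0.89 ± 0.32 (adjusted exact p = 0.0176). *Keap1* exceeded *Gclc*, *Gclc* exceeded *Gclm* and *Hmox1* exceeded *Slc7a11*, each in 8 of 8 mice and with the same adjusted p, which rests on 0.00781, the smallest p that 8 mice allow. *Nfe2l2* and *Keap1* could not be ordered, with a difference of 0.066 ± 0.28 and *Nfe2l2* the higher in 4 of 8 mice (adjusted exact p = 0.508). *Slc7a11* and *Nqo1* could not be ordered either (0.59 ± 0.99, adjusted exact p = 0.167). The other 3 pairs held in 7 of 8 mice (adjusted exact p = 0.0281 to 0.0402). With the canonical transcript length in place of the summed exons, *Keap1* (5.83 TPM) stood before *Nfe2l2* (5.40 TPM), and the order was otherwise kept. The p-values cover differences between mice and not an error in the annotated lengths. These were 8648 (summed) and 5315 (canonical) bases for *Sod1*, and 7086 and 3325 for *Txnrd1*. Which transcripts the cells used was not measured, so the order, that of *Txnrd1* and *Sod1* included, holds only for these lengths.

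**Figure D1:**
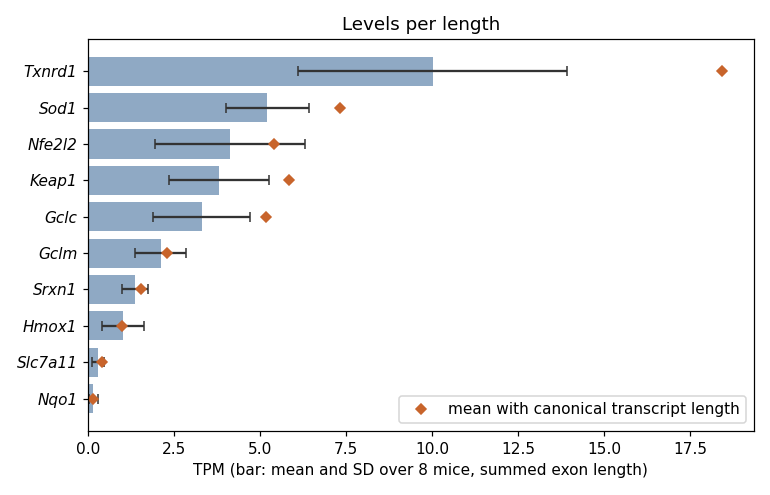
Level of each gene per length in TPM on a linear axis that starts at 0, as the mean and SD over 8 mice with summed exon length (bars) and as the mean with canonical transcript length (diamonds). Txnrd1 stands highest by either length, and Slc7a11 (0.276 TPM by summed exons, 0.401 by canonical length) and Nqo1 (0.152 and 0.135) stand lowest.

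Between diets, none of the 10 genes passed the test. Of the 10, 9 had enough counts to be tested, and *Nqo1* did not pass the filter on low counts. Among the 9 tested, 0 had an adjusted p under 0.05 and 0 had an unadjusted p under 0.05 (edgeR's quasi-likelihood test, Benjamini-Hochberg over 10911 genes), where 0.403% and 10.5% of all genes tested did. DESeq2 also called 0 of them, and 1.34% of all genes. The smallest adjusted p was 0.504, for *Srxn1*. The values of the diets overlapped for all 9, and 6.09% of all genes tested did not overlap. Scaled by library size only, 2 of the 10 (*Gclm* and *Sod1*, both lower in the zinc depleted mice) did not overlap, as did 6.83% of all genes, and the median of all genes then lay at -0.37. The log2 differences of zinc depleted minus control mice were positive for 5 and negative for 4 of the genes, from -0.28 to 0.36 with a median of 0.019, beside a median of -0.0052 over all genes tested. For 7 of the 9 genes, the 95% confidence interval of the difference lay within a 2-fold change in either direction. The exceptions were *Hmox1* and *Slc7a11*, whose intervals reached 2.16-fold and 2.22-fold.

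**Figure D2:**
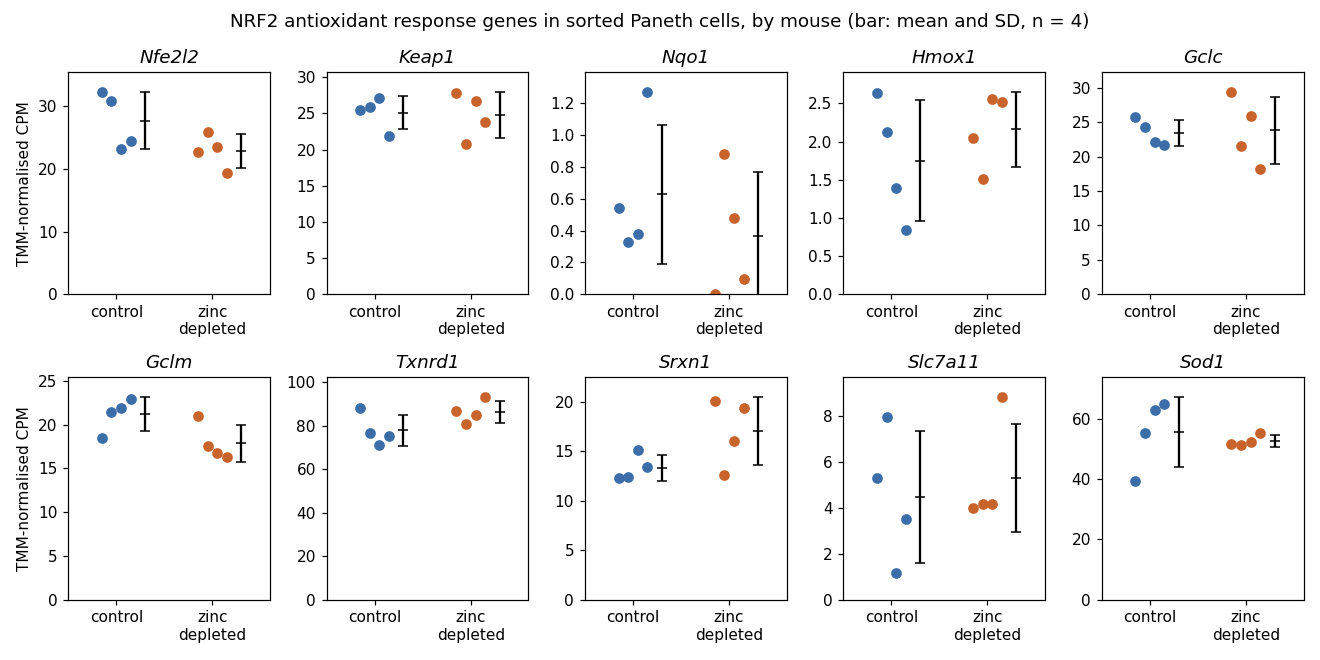
TMM-normalised CPM of each gene in each mouse (points, replicates 1 to 4 from left to right), with the mean and SD of 4 mice beside them, on linear axes that start at 0, where the lower bar of Nqo1 in the zinc depleted mice is cut off. The diets overlap in every panel, and control replicate 1 is the lowest control mouse for Sod1 (39.3) and Gclm (18.5).

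*Nfe2l2* (ENSMUSG00000015839, chr2:75504739-75534985, minus strand, 5 exons in the canonical transcript, GRCm39 positions for all genes) had 32.2, 30.8, 23.1 and 24.5 normalised CPM in the control mice (replicates 1 to 4) and 22.7, 25.8, 23.5 and 19.4 in the zinc depleted mice. All 4 zinc depleted mice lay below the median of the control mice, but only 2 of them below the lowest control mouse. The log2 difference was -0.28 with a standard error (SE) of 0.16 and an interval of -0.62 to 0.05 (edgeR, adjusted p = 0.572). *Keap1* (ENSMUSG00000003308, chr9:21141026-21150679, minus strand, 6 exons) had 25.4, 25.9, 27.1 and 21.8 normalised CPM in the control mice and 27.8, 20.7, 26.6 and 23.9 in the zinc depleted mice. Both diets covered nearly the same range, and the log2 difference was -0.015 (SE 0.15, interval -0.33 to 0.30, adjusted p = 0.984). A ratio within a library does not depend on scaling, and the counts of *Keap1* over those of *Nfe2l2* gave ratios of 0.789, 0.841, 1.17 and 0.892 in the control mice and 1.23, 0.804, 1.13 and 1.23 in the zinc depleted mice. Zinc depleted replicate 2 and control replicate 3 each fell among the mice of the other diet. On the log2 scale the ratio differed by 0.25 (two-sided exact permutation of the diet labels, 70 assignments, p = 0.286, adjusted over 3 ratios 0.286), where the smallest possible p is 0.0286.

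The genes of glutathione supply had differences on both sides of 0. *Gclc* (ENSMUSG00000032350, chr9:77661797-77701770, plus strand, 16 exons) had 25.7, 24.3, 22.1 and 21.7 normalised CPM in the control mice and 29.3, 21.6, 25.9 and 18.2 in the zinc depleted mice. The zinc depleted mice lay on both sides of the control mice, 2 above and 2 below all of them, and the log2 difference was 0.019 (SE 0.16, interval -0.33 to 0.36, adjusted p = 0.981). *Gclm* (ENSMUSG00000028124, chr3:122039126-122065061, plus strand, 7 exons) had 18.5, 21.4, 21.9 and 23.0 normalised CPM in the control mice and 20.9, 17.6, 16.7 and 16.3 in the zinc depleted mice. Here 3 zinc depleted mice lay below every control mouse, and the ranges overlapped through control replicate 1 and zinc depleted replicate 1. The log2 difference was -0.24 (SE 0.16, interval -0.57 to 0.08, adjusted p = 0.633) and -0.31 without control replicate 1. The counts of *Gclm* per count of *Gclc* were 0.721, 0.882, 0.994 and 1.06 in the control mice and 0.714, 0.813, 0.647 and 0.893 in the zinc depleted mice. The log2 difference of this ratio was -0.25 (exact two-sided permutation test, p = 0.2, adjusted 0.286).

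*Slc7a11* (ENSMUSG00000027737, chr3:49846975-50398070, minus strand, 12 exons) was the most variable of the 9 genes tested, with 5.29, 7.95, 1.13 and 3.49 normalised CPM in the control mice and 3.99, 4.17, 4.15 and 8.79 in the zinc depleted mice. Its counts were between 9 and 98 per mouse, and its coefficient of variation was 64.5% in the control mice and 44.5% in the zinc depleted mice, against medians of 19.1% and 20.1% over all genes tested. The log2 difference was 0.21 (SE 0.44, interval -0.73 to 1.15, adjusted p = 0.920), and it was -0.16 without zinc depleted replicate 4 and -0.080 without control replicate 3. *Slc3a2*, the heavy chain with which SLC7A11 forms the transporter, had 104, 105, 74.9 and 94.4 normalised CPM in the control mice and 176, 72.0, 64.6 and 138 in the zinc depleted mice. Zinc depleted replicates 1 and 4 lay above and replicates 2 and 3 below all control mice (log2 difference 0.25, SE 0.29, adjusted p = 0.824).

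Among the members, *Txnrd1* and *Srxn1* of the thioredoxin cycle had positive differences, neither of them called, and that of *Srxn1* was the highest of the 9. *Txnrd1* (ENSMUSG00000020250, chr10:82669785-82733546, plus strand, 14 exons) had 88.1, 76.8, 71.2 and 75.5 normalised CPM in the control mice and 86.7, 80.8, 84.9 and 93.1 in the zinc depleted mice. All 4 zinc depleted mice exceeded the control median, and control replicate 1 lay among them. Counts were 565 to 1633 per mouse, and the log2 difference was 0.15 (SE 0.13, interval -0.13 to 0.43, adjusted p = 0.762). *Srxn1* (ENSMUSG00000032802, chr2:151947436-151957687, plus strand, 2 exons) had 12.3, 12.4, 15.1 and 13.4 normalised CPM in the control mice and 20.1, 12.6, 16.0 and 19.4 in the zinc depleted mice. Of the zinc depleted mice, 3 lay above every control mouse and replicate 2 lay among them. The log2 difference of 0.36 (SE 0.18, interval -0.013 to 0.74) had an unadjusted p of 0.0578 and an adjusted p of 0.504 in edgeR's test. Leaving out single mice moved it from 0.28 to 0.48.

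*Hmox1* and *Nqo1* had the fewest counts of the 10 genes. *Hmox1* (ENSMUSG00000005413, chr8:75820241-75827217, plus strand, 5 exons) had 49, 26, 11 and 8 counts in the control mice, or 2.64, 2.13, 1.39 and 0.847 normalised CPM, and 19, 12, 32 and 27 counts in the zinc depleted mice, or 2.05, 1.52, 2.55 and 2.53 normalised CPM. All 4 zinc depleted mice lay within the range of the control mice, and the log2 difference was 0.27 (SE 0.40, interval -0.57 to 1.11, adjusted p = 0.879). The difference was 0.058 without control replicate 4 and 0.56 without control replicate 1. *Nqo1* (ENSMUSG00000003849, chr8:108113835-108129934, minus strand, 6 exons) had 10, 4, 3 and 12 counts in the control mice and 0, 7, 6 and 1 in the zinc depleted mice. By the limit of 3 counts, the 0 in zinc depleted replicate 1 stands for a level of up to 0.302 CPM, which is within the range of the other mice. *Nqo1* was not tested, and its counts overlapped between diets.

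*Sod1* (ENSMUSG00000022982, chr16:90017408-90027657, plus strand, 5 exons) binds zinc in its active enzyme and receives copper from its chaperone CCS. It had 39.3, 55.2, 62.8 and 64.7 normalised CPM in the control mice and 51.6, 51.1, 52.3 and 55.3 in the zinc depleted mice. The zinc depleted mice lay close together, with a coefficient of variation of 3.54% against 20.8% in the control mice, where replicate 1 was the lowest. The log2 difference was -0.074 (SE 0.16, interval -0.40 to 0.25, adjusted p = 0.919) and -0.21 without control replicate 1. *Ccs* had 11.5 ± 1.17 normalised CPM (SD, n = 4) in the control mice and 8.97 ± 1.31 in the zinc depleted mice (log2 difference -0.36, SE 0.19, adjusted p = 0.525). The counts of *Ccs* per count of *Sod1* were 0.260, 0.210, 0.180 and 0.202 in the control mice and 0.208, 0.171, 0.144 and 0.163 in the zinc depleted mice. In 3 of 4 zinc depleted mice the ratio was below that of every control mouse, and replicate 1 lay among them. The log2 difference of the ratio was -0.31 (exact two-sided permutation test, p = 0.0857, adjusted 0.257).

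**Figure D3:**
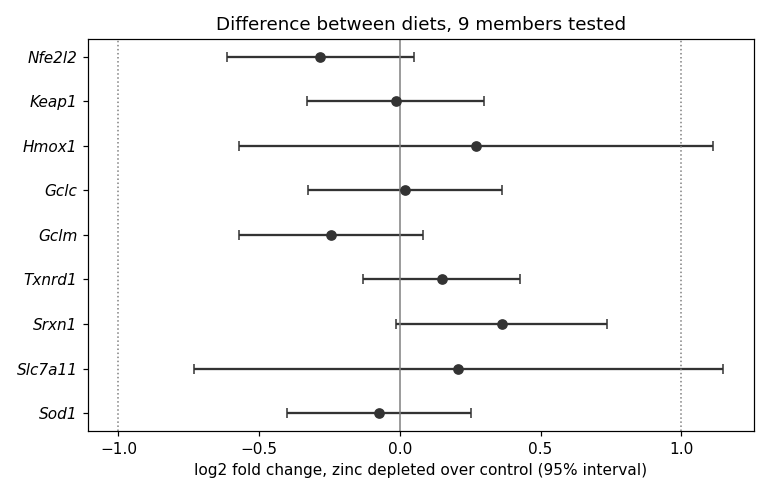
Log2 difference of zinc depleted minus control mice for the 9 genes tested, with the 95% confidence interval, and dotted lines at a 2-fold change in each direction. Every interval includes 0, the interval of Srxn1 starts at -0.013, and those of Hmox1 and Slc7a11 reach past 2-fold.

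**Figure D4:**
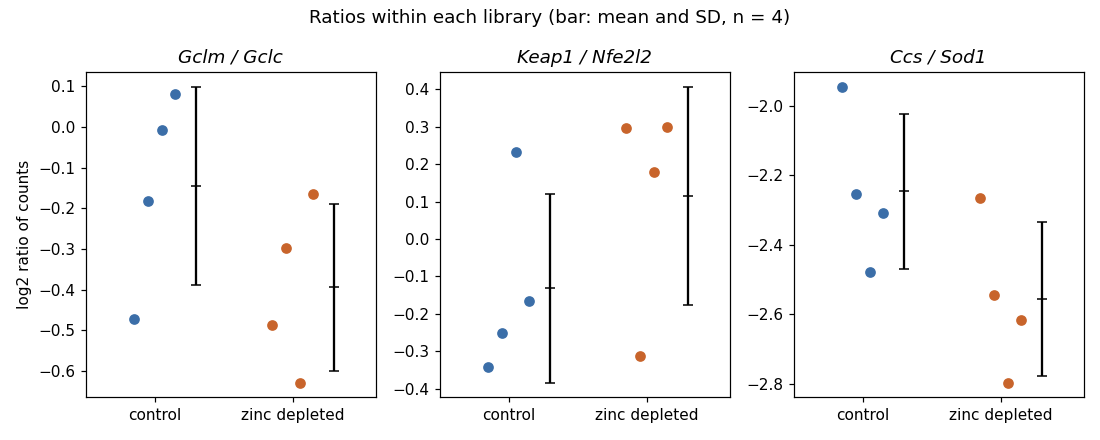
Log2 ratio of the counts of 2 genes within each library (points, replicates 1 to 4 from left to right), with the mean and SD of 4 mice per diet. The diets overlap for all 3 ratios, and the means differ by -0.25 for Gclm to Gclc, 0.25 for Keap1 to Nfe2l2 and -0.31 for Ccs to Sod1.

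Other genes of the pathway were taken from lists by their known roles, and none of them passed the adjusted threshold in edgeR's test. Of 13 regulators and partners of NRF2, 12 were tested and 0 had an unadjusted p under 0.05 (median log2 difference 0.049, from -0.28 to 0.39). They include *Sqstm1*, the autophagy receptor that can capture KEAP1, at 158 ± 11.98 normalised CPM in the control mice and 165 ± 8.59 in the zinc depleted mice, and *Cul3*, at 52.0 ± 5.11 and 53.3 ± 3.62. Of 12 genes of glutathione and cystine supply, 11 were tested and 0 had an unadjusted p under 0.05 (median -0.019). Of 28 other antioxidant enzymes and related genes, 25 were tested and 2 had an unadjusted p under 0.05 (8% of the list, against 10.5% of all genes tested; median 0.014). These were *Sesn2*, with a log2 difference of -0.79 (SE 0.23, adjusted p = 0.183) and *Sesn3*, with -0.47 (SE 0.17, adjusted p = 0.310). The diets did not overlap for *Sesn3*.

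Of the 5 pathway lists, that of other NRF2 target genes had the widest range of differences, and also the most genes tested. Of 38 genes, 29 were tested, 0 were called, and 11 had an unadjusted p under 0.05 (37.9% of those tested, against 10.5% of all genes). Among the 11, 6 had a higher and 5 a lower level in the zinc depleted mice. Over all genes tested, 4.43% had such a p with a higher level and 6.04% with a lower level. The diets did not overlap for 6 of the 29, on both sides of 0, where 6.09% of all genes tested did not. The list was chosen with earlier results of these data known, so these shares are a description. The median log2 difference of the list was 0.11, with values from -1.13 to 0.92. The lowest value, that of *Gstm3*, rests on 3 to 65 counts per mouse (SE 0.43, edgeR adjusted p = 0.334). The 6 on the higher side were *Gpx2*, *Idh1*, *Abcc2*, *Fth1*, *Prdx1* and *Txn1*, and the 5 on the lower side were *Gstm1*, *Gstm3*, *Tkt*, *Ephx1* and *Ugdh*.

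*Idh1*, the cytosolic isocitrate dehydrogenase that yields NADPH, came nearest to the threshold. It had 58.5, 69.1, 50.0 and 70.6 normalised CPM in the control mice and 109, 93.6, 79.9 and 106 in the zinc depleted mice. The diets did not overlap, and the log2 difference was 0.64 (SE 0.15, edgeR adjusted p = 0.0780). DESeq2 gave an adjusted p of 0.00687, edgeR without the low count filter gave 0.0117, and over the 15 alternatives the adjusted p ranged from 0.00687 to 0.494 (library size only). *Gpx2*, the glutathione peroxidase of the gut epithelium, had 89.0, 100.5, 123 and 133 normalised CPM in the control mice and 173, 154, 135 and 382 in the zinc depleted mice. All zinc depleted mice lay above the control mice, with replicate 4 far above the rest, and the log2 difference was 0.92 (SE 0.30, adjusted p = 0.268) and 0.47 without that mouse. The adjusted p of *Gpx2* was 0.0392 with DESeq2, 0.000119 in edgeR's test without the low count filter and 0.0584 with the replicate number as a block. Over the 15 alternatives it ranged from 0.000119 to 0.677 (edgeR without control replicate 1), and it was 0.437 without zinc depleted replicate 4. *Fth1*, the ferritin heavy chain, had 452, 585, 634 and 669 normalised CPM in the control mice and 759, 901, 720 and 771 in the zinc depleted mice. Its diets did not overlap either (log2 difference 0.43, SE 0.19, adjusted p = 0.431). Genes such as *Fth1*, *Prdx1* and *Txn1* have many processed copies in the genome and the *Gstm* genes are close copies of one another, so their levels are uncertain to the extent that reads were split between copies.

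On the other side, *Gstm1*, a glutathione transferase, had 16.0 ± 1.02 normalised CPM (SD, n = 4) in the control mice and 10.5 ± 3.34 in the zinc depleted mice, with a log2 difference of -0.60 (SE 0.21, adjusted p = 0.276). Its diets did not overlap. *Ephx1*, the microsomal epoxide hydrolase, had 28.0 ± 5.62 and 20.6 ± 3.51 (log2 difference -0.44, SE 0.18, adjusted p = 0.372). *Tkt*, the transketolase of the pentose phosphate pathway, had 92.6 ± 10.03 and 71.4 ± 9.22 (log2 difference -0.37, SE 0.14, adjusted p = 0.337). The alpha class transferases *Gsta1* and *Gsta2* and the aldehyde dehydrogenase *Aldh3a1*, all known targets of NRF2 in other tissues, had 0 counts in all 8 mice. *Gsta3* and *Gsta4*, of the same class, had counts in all 8 mice, 41 and 44 in sum, which was too few to be tested. How reads that match several genes were counted is not given, so 0 counts do not show that a gene was silent.

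**Figure D5:**
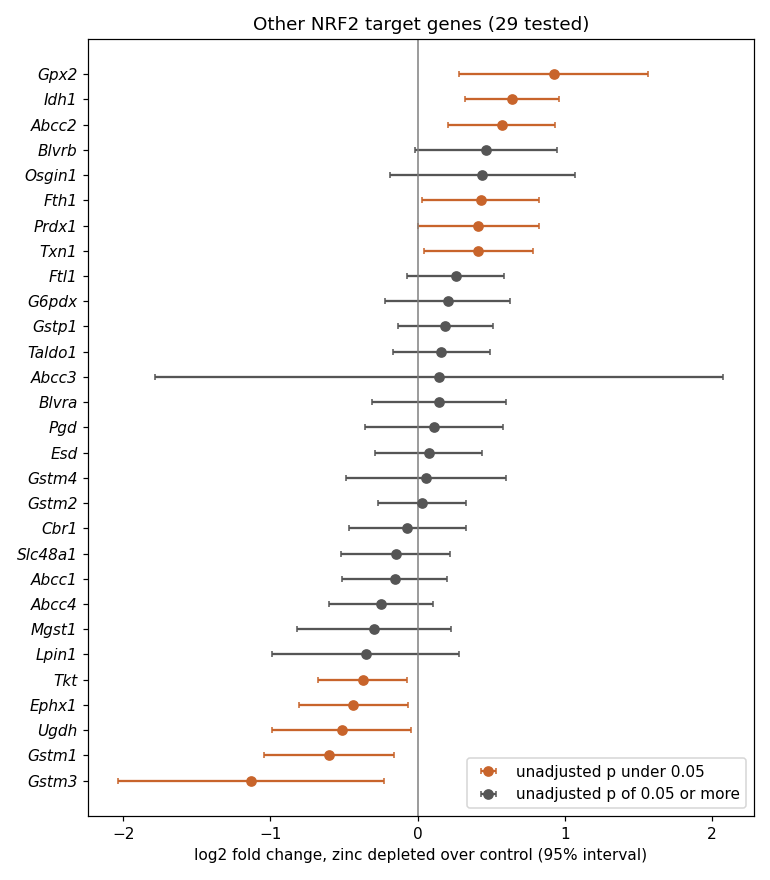
Log2 difference of zinc depleted minus control mice with its 95% confidence interval for the 29 other NRF2 target genes tested, in order of the difference, with those of unadjusted p under 0.05 in orange. The list spreads to both sides of 0, from Gstm3 (3 to 65 counts per mouse) at -1.13 to Gpx2 at 0.92.

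Zinc-responsive genes, a list of 5 (*Mt1*, *Mt2*, *Mtf1*, *Slc30a1* and *Slc39a4*), were measured in the same libraries, and 0 of the 5 tested were called. *Mt1*, a metallothionein that is induced by zinc, had 13.1 ± 0.426 normalised CPM (SD, n = 4) in the control mice and 11.1 ± 4.32 in the zinc depleted mice (log2 difference -0.25, SE 0.24, adjusted p = 0.786). Zinc depleted replicate 4 had 5.14 normalised CPM and the other zinc depleted mice 10.6 to 14.5, and without that mouse the difference was -0.0055. *Mt2*, the other metallothionein of the list, lay on the other side of 0 (log2 difference 0.46, SE 0.37, edgeR adjusted p = 0.725). *Slc39a4*, the zinc importer of the gut epithelium, had a log2 difference of -0.081 (adjusted p = 0.941), and *Slc30a1* one of -0.37 (SE 0.37, edgeR adjusted p = 0.789). *Mtf1*, the zinc sensor that drives metallothionein genes, was the gene of this list with an unadjusted p under 0.05, at 7.09 ± 1.03 and 9.65 ± 1.38 normalised CPM (log2 difference 0.44, SE 0.20, adjusted p = 0.441). Its diets did not overlap.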

How the data were processed

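The authors deposited raw counts per Ensembl gene identifier, 1 column per mouse, without normalization. Per the labels, libraries were made with a stranded mRNA kit, and the submitters' processing notes name FastQC 0.12.0, STAR 2.7.0a, DESeq2 and the build mm39. How counting was done, with which strand setting and with what treatment of reads that match several genes, is not given in the sources used here. Reads of overlapping or antisense genes may thus be mixed.

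Symbols and lengths came from GENCODE M39 on GRCm39, in which 54749 of the 55414 identifiers were found. Where 1 symbol had several identifiers, that with the most counts was used. The test between diets was that of edgeR 4.0.16 under R 4.3.3 (filterByExpr, 10911 genes; TMM; robust quasi-likelihood test; Benjamini-Hochberg, threshold 0.05), with DESeq2 1.42.0 as an alternative. Normalised CPM are counts per 1000000 of the TMM-scaled library. Intervals of log2 differences cover 95% and use the degrees of freedom of the fit. Ratios had 0.5 counts added to each gene. Exact tests were computed in Python 3.11.15 with numpy 2.4.6. The fit was tested on simulated data.

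The 12 pairs of mice on the same diet all differed beyond sampling noise, with chi-square values over their degrees of freedom of 5.43 to 55.1. Genes named are the 10 members, list genes with an unadjusted p under 0.05, the 3 with the highest level of each list, those needed for a ratio, and markers. *Gsta1* to *Gsta4* and *Aldh3a1* were named after their values were seen, and the noncoding RNAs for their position. *Mt2* and *Slc30a1* were given to complete the list of zinc-responsive genes. The members and lists were chosen with earlier results of these data known.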

Additional observations from a re-analysis of the deposited data

Results flagged for a closer look

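Each group of 4 mice was searched for a mouse far from the other 3 (Dixon's test, 94 groups). Chance flags about 1 in 20 groups, and 4 were found. *Slc7a11* had 8.79 normalised CPM in zinc depleted replicate 4 and 3.99 to 4.17 in the other zinc depleted mice. *Gpx2* had 382 normalised CPM in the same mouse and 135 to 173 in the other zinc depleted mice. *Mtf1*, the zinc sensor, had 8.61 normalised CPM in control replicate 2 and 6.46 to 6.81 in the other control mice, and its log2 difference between diets was 0.44 (SE 0.20, edgeR adjusted p = 0.441) and 0.56 without that mouse. Tuft cell markers summed to 284 normalised CPM in zinc depleted replicate 3 and to 16.4 to 48.8 in the other zinc depleted mice, and without that mouse 0 of the 10 antioxidant response genes passed the adjusted threshold either.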

How the results depend on the processing

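None of the 10 genes was called under any of the 15 alternatives, with a smallest adjusted p of 0.313 (*Srxn1* without zinc depleted replicate 2). Over all genes, 44 were called, 146 with DESeq2, 251 without the low count filter, 25 without the robust option and 11 with library size only, and 8 to 36 with 1 mouse left out (8 without control replicate 2 or 4, 13 without zinc depleted replicate 2, 17 without zinc depleted replicate 4, 26 without zinc depleted replicate 1). Deviations of same-numbered mice from their group means correlated at 0.0841, 0.0900, 0.0254 and 0.0651 for replicates 1 to 4. The highest correlation of each control mouse with a zinc depleted mouse of another number was 0.0805, -0.0147, 0.145 and 0.0414. All of these values are small, and they cannot decide whether the numbers mark a pairing. With the replicate number as a block 53 were called, of which 36 were among the 44, and 0 of the 10 genes. *Idh1*, not among the 44, was called under the block (adjusted p = 0.0431).

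Library size in place of TMM moved the median of all genes to -0.37 and turned *Hmox1* to -0.15, *Gclc* to -0.34, *Txnrd1* to -0.23 and *Slc7a11* to -0.23 (log2). All 4 lay above that median. *Gclm* and *Sod1* (2 of the 10) then did not overlap between diets. *Keap1* was 0.0051 with DESeq2 and 0.0042 with its size factors. With 1 mouse left out, the differences spanned -0.074 to 0.061 for *Keap1*, -0.095 to 0.13 for *Gclc*, -0.16 to 0.63 for *Slc7a11*, 0.058 to 0.56 for *Hmox1* and -0.21 to 0.0096 for *Sod1*. Of the abundant list genes, library size turned *Cul3* to -0.36, *Dpp3* to -0.18, *Ftl1* to -0.066, *Mat2a* to -0.0037, *Prdx2* to -0.13, *Prdx6* to -0.30, *Shmt2* to -0.091, *Slc3a2* to -0.14 and *Sqstm1* to -0.28, and leaving out 1 mouse gave -0.014 to 0.097 for *Cul3*, -0.013 to 0.30 for *Prdx2*, -0.071 to 0.099 for *Prdx6*, -0.28 to 0.090 for *Slc39a4* and -0.048 to 0.45 for *Slc3a2*. The cause was not tested. The order of levels changed for 2 genes with the canonical length (*Nfe2l2* and *Keap1*) and for 2 without length (*Hmox1* and *Slc7a11*). Counts were lowest for *Nqo1*, *Hmox1* and *Slc7a11*, with at most 12, 49 and 98 per mouse.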
